A study of Mus musculus with 4 samples.

Results

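The proteasome, the protease that degrades ubiquitin-tagged proteins, was described in RAW264.7 cells, a mouse macrophage line, under 4 conditions: 1% oxygen with IL6 (HC+IL6), 1% oxygen alone (HC), normoxia with IL6 (NC+IL6) and normoxia alone (NC). All cells grew in DMEM with fetal bovine serum and antibiotics and stayed 4 days in their condition, IL6 was given at 25 ng/ml, and RNA of each condition went to 1 Affymetrix array. The members were all genes whose symbol is Psma, Psmb, Psmc, Psmd, Psme, Psmf or Psmg followed by a number. The choice was by name and not by signal, but it was made with earlier results of these data known. The members were 47 genes with 100 probe sets, out of 18194 genes and 45101 probe sets. The RefSeq annotation holds 48 such genes, and the remaining one, Psme2, shares its probe set with Psme2b and was left out. Values are log2 signals, and each gene is given by its brightest probe set, a group of short probes for 1 transcript. A gene counted as detected where it was above a background floor, set at the 95th percentile of the signals of 93 probe sets whose genes belong to other tissues (log2 signals of 7.06 in HC+IL6, 6.96 in HC, 6.75 in NC+IL6 and 6.75 in NC). Of the 47 genes, 46 were above it on all 4 arrays. Psmb11, a subunit made in the thymic cortex, was under it on all 4, at 4.48 in HC+IL6, 5.38 in HC, 3.11 in NC+IL6 and 5.08 in NC. No condition was replicated, so differences are given without p-values and the precision is limited by there being 4 arrays in all. The only spread at hand is that between probe sets of the same gene, a pooled SD of a log2 ratio of 0.34 for HC over NC, 0.33 for HC+IL6 over NC+IL6, 0.28 for NC+IL6 over NC and 0.30 for HC+IL6 over HC. It does not cover differences between cultures.

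The core of the proteasome is a barrel of stacked rings of alpha and beta subunits, and the cutting is done inside it by the beta subunits Psmb5, Psmb6 and Psmb7. Interferons induce Psmb8, Psmb9 and Psmb10, which take the places of these subunits in newly made barrels, the immunoproteasome, and favour peptides that fit MHC class I. A cap with a ring of ATPases (Psmc) and a lid and base of further subunits (Psmd) recognises tagged proteins, unfolds them and feeds them into the barrel. Other activators (Psme) can sit on the barrel ends, Psmf1 binds the barrel as an inhibitor, and Psmg proteins help to build it. Macrophages, which present peptides, carry both kinds of barrel.

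The array labels were checked first. Of 10 macrophage markers 9 were above the floor on all 4 arrays, while of the markers of T cells, B cells, fibroblasts and endothelium none of the 4, 3, 5 and 4 on the array was above it in any condition, and of 5 epithelial markers 1 was in at least 1 condition. Of 11 hypoxia-inducible genes, 9 were 2-fold or more higher in HC than in NC, against 3.76% of all genes tested. In HC+IL6 over NC+IL6, 5 were so, against 2.79%. With IL6, 6 were so in NC+IL6 over NC, against 3.51%, and 3 in HC+IL6 over HC, against 2.35%. These genes thus differed with IL6 as well, so by themselves they do not separate the oxygen label from the IL6 label. The 3' to 5' signal ratio of beta-actin, a sign of RNA integrity, was 1.62 in HC+IL6, 1.73 in HC, 1.41 in NC+IL6 and 1.54 in NC. That of Gapdh was 0.878 in HC+IL6, 0.873 in HC, 0.931 in NC+IL6 and 0.933 in NC, so the 2 controls differed with oxygen in opposite directions. A difference counts as a call here when the brighter signal exceeded its floor and was at least 2-fold the other, with signals under the floor raised to it. Counts at 1.5-fold are given beside these.

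The stretches of 300 bases around the start of the 3 interferon-induced genes and of Psmb5 and Psmb6 are shown because these genes divide in their values below. They run from 250 bases before to 50 bases after the start, 5′ to 3′ on the gene's strand (RefSeq, GRCm38.p6), and a window for Psmb7 was not used. Psmb8 lies at chr17:34197945-34198244 on the plus strand, Psmb9 at chr17:34187281-34187580 on the minus strand and Psmb10 at chr8:105938343-105938642 on the minus strand. Psmb5 lies at chr14:54617946-54618245 on the minus strand and Psmb6 at chr11:70525107-70525406 on the plus strand. Capitals mark letters that match 1 of 4 motifs on either strand; matches to different motifs did not overlap here.
Psmb8: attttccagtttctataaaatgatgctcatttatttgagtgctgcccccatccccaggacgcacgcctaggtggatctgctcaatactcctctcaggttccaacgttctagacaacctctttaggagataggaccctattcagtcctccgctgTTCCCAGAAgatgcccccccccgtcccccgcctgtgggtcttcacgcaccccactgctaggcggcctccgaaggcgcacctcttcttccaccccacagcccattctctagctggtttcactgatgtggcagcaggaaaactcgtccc
Psmb9: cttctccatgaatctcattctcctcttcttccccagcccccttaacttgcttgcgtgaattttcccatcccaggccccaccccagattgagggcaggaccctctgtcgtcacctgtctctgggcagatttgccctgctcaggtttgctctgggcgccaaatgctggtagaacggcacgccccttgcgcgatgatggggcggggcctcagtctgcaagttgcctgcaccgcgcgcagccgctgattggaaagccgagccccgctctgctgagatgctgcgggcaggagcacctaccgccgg
Psmb10: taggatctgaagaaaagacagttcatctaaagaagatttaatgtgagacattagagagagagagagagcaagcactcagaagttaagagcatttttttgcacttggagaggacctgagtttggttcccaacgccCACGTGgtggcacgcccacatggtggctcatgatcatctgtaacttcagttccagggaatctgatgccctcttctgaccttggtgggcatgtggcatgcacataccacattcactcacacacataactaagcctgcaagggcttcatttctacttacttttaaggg
Psmb5: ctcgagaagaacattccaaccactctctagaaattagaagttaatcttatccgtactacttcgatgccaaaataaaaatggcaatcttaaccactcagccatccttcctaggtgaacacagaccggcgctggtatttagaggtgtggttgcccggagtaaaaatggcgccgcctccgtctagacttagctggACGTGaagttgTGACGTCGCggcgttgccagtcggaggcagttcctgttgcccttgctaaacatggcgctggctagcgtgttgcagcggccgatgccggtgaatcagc
Psmb6: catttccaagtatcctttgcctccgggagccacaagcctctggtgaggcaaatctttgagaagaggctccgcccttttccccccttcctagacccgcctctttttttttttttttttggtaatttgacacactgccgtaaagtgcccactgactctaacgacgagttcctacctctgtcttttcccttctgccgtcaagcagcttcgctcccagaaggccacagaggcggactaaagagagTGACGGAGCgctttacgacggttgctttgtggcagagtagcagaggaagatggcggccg

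The motifs were the interferon-stimulated response element (GAAA, any 2 bases, GAAA), the gamma-activated site that STAT dimers bind (TTCNNNGAA), the core of the antioxidant response element (TGACNNNGC), which is also bound by the proteasome regulator Nfe2l1, and the core bound by hypoxia-inducible factors (ACGTG). Psmb8 has a gamma-activated site, TTCCCAGAA, 97 to 89 bases before its start. Psmb5 has the antioxidant core TGACGTCGC at 47 to 39 bases before the start and ACGTG at 58 to 54, and Psmb6 has TGACGGAGC at 9 to 1. Psmb10 has ACGTG read from both strands at 116 to 111 bases before the start, and Psmb9 holds none of the 4 in this window. Among 39 proteasome genes with a window, the response element was in 5 (Psmb3, Psmd4, Psmd9, Psme1 and Psmg4), against 3.44% of all 32851 windows. The gamma-activated site was in 3 (Psmb8, Psmd2 and Psmg1), against 8.30% of windows, the antioxidant core in 6, against 12.4%, and ACGTG in 8, against 19.6%. A proteasome gene counted if any of its windows matched, while the background shares count single windows, so the 2 are not strictly alike. A match is a string of letters and not a shown binding site.

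Psmb8, Psmb9 and Psmb10 were higher with IL6 in normoxia and stood apart in size from the rest of the proteasome. Psmb8, which replaces Psmb5 and whose window above holds the gamma-activated site, had log2 signals of 11.92 in HC+IL6, 11.40 in HC, 12.44 in NC+IL6 and 11.66 in NC. Psmb9, which replaces Psmb6, had 10.77 in HC+IL6, 10.43 in HC, 11.33 in NC+IL6 and 10.28 in NC. Psmb10, which replaces Psmb7, had 11.19 in HC+IL6, 10.71 in HC, 12.20 in NC+IL6 and 11.45 in NC. All 3 were brightest in NC+IL6, as were Psmb5, Psmb6 and Psmb7. Psmb8 and Psmb10 were dimmest in HC, and Psmb9 was dimmest in NC, where it differed from HC by less than the spread between probe sets. In NC+IL6 over NC, Psmb9 was 2.08-fold higher, Psmb8 1.72-fold and Psmb10 1.68-fold. Psmd2 and Psmg1, whose windows also hold a gamma-activated site, had log2 ratios of 0.04 and -0.16 there. A part of the site in these values was not tested. In HC+IL6 over HC Psmb9 was 1.27-fold, Psmb8 1.43-fold and Psmb10 1.39-fold higher, so none of them reached 1.5-fold there. Psmb8 was the only one of the 3 with a further probe set, much dimmer, which had log2 ratios of 0.96 for NC+IL6 over NC and 0.30 for HC+IL6 over HC.

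The constitutive subunits that they replace differed less with IL6 in normoxia, but not all of them did in hypoxia. Psmb5, with chymotrypsin-like activity, had 13.05 in HC+IL6, 12.85 in HC, 13.41 in NC+IL6 and 13.35 in NC. Psmb6, with caspase-like activity, had 12.76 in HC+IL6, 12.45 in HC, 13.20 in NC+IL6 and 12.97 in NC. Psmb7, with trypsin-like activity, had 10.79 in HC+IL6, 10.18 in HC, 10.99 in NC+IL6 and 10.93 in NC. All 3 were lower on both hypoxia arrays than on both normoxia arrays. In NC+IL6 over NC the log2 ratio of Psmb8 exceeded that of Psmb5 by 0.72, that of Psmb9 exceeded that of Psmb6 by 0.82, and that of Psmb10 exceeded that of Psmb7 by 0.70. In HC+IL6 over HC these differences were 0.31, 0.03 and -0.13, with Psmb7 itself 1.52-fold higher. The IL6-linked gap between an induced subunit and its constitutive counterpart was wider in normoxia than in hypoxia for each of the 3 pairs, which was not tested.

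**Figure D1:**
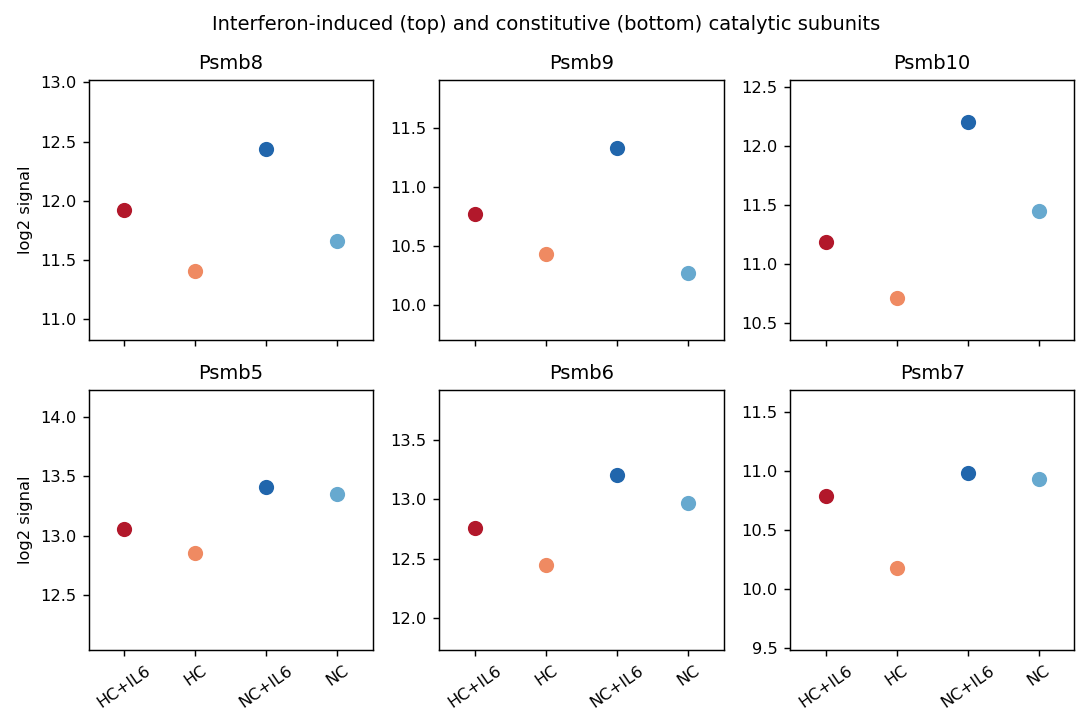
Log2 signal (y axis) of the interferon-induced subunits Psmb8, Psmb9 and Psmb10 (top) and of Psmb5, Psmb6 and Psmb7 (bottom) in HC+IL6, HC, NC+IL6 and NC, 1 array per point, with the same height of scale in every panel. Every gene shown is brightest in NC+IL6. In the top row NC+IL6 and NC lie further apart (12.44 and 11.66, 11.33 and 10.28, 12.20 and 11.45). In the bottom row they lie closer (13.41 and 13.35, 13.20 and 12.97, 10.99 and 10.93).

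Across the proteasome as a whole, transcripts were slightly lower in hypoxia, by a similar amount with and without IL6. The median log2 ratio of the 46 genes was -0.38 for HC over NC and -0.35 for HC+IL6 over NC+IL6, against 0.05 and 0.03 over all genes tested. Among the 2439 genes tested with a mean log2 signal above 11 the median was -0.08 and -0.05, and 1466 and 1369 of them were below 0. In HC over NC, 43 of 46 had a log2 ratio below 0, against 45.7% of 9200 genes tested, and in HC+IL6 over NC+IL6, 45 of 46 had, against 47.3% of 9179. Both ratios were below 0 for 42 of 46, against 32.8% of the 9474 genes above the floor on at least 1 array. On both hypoxia arrays 38 of 46 were dimmer than on either normoxia array, against 23.3% of those genes. The 8 exceptions were Psma7, Psma8, Psmb8, Psmb9, Psmd8, Psmd10, Psme4 and Psmg4.

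The differences were mostly small. None of the 46 was called at 2-fold in HC over NC, where 1.07% of genes tested were called lower and 3.76% higher. Psmb10 alone was called in HC+IL6 over NC+IL6, 2.02-fold lower, where 1.35% were called lower and 2.79% higher. That call was lost after quantile normalization, with a log2 ratio of -0.94, and after cyclic loess, with -0.997, both just short of 2-fold. At 1.5-fold, 7 of 46 were lower in HC than in NC (Psmb7, Psmb10, Psmc3, Psmc5, Psmd2, Psme3 and Psmg1), against 6.91% of genes tested, and none was higher, against 12.8%. With IL6 present in both, hypoxia gave 5 of 46 lower (Psmb10, Psmc3, Psmc5, Psmd5 and Psme3), against 6.3%, and none was higher, against 11%. Of the 2439 genes with a mean log2 signal above 11, 191 were lower and 121 higher at 1.5-fold in HC over NC. In HC+IL6 over NC+IL6, 124 of them were lower and 101 higher. Both hypoxia arrays had the higher beta-actin and the lower Gapdh 3' to 5' ratios given above, and the part of RNA integrity in these shifts was not tested. Over all genes, higher calls made up 77.9% of calls in HC over NC and 67.4% in HC+IL6 over NC+IL6, 58.7% and 52.7% after quantile normalization, and 62.5% and 52.3% after cyclic loess. The medians of the proteasome genes after quantile normalization were -0.31 and -0.29.

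**Figure D2:**
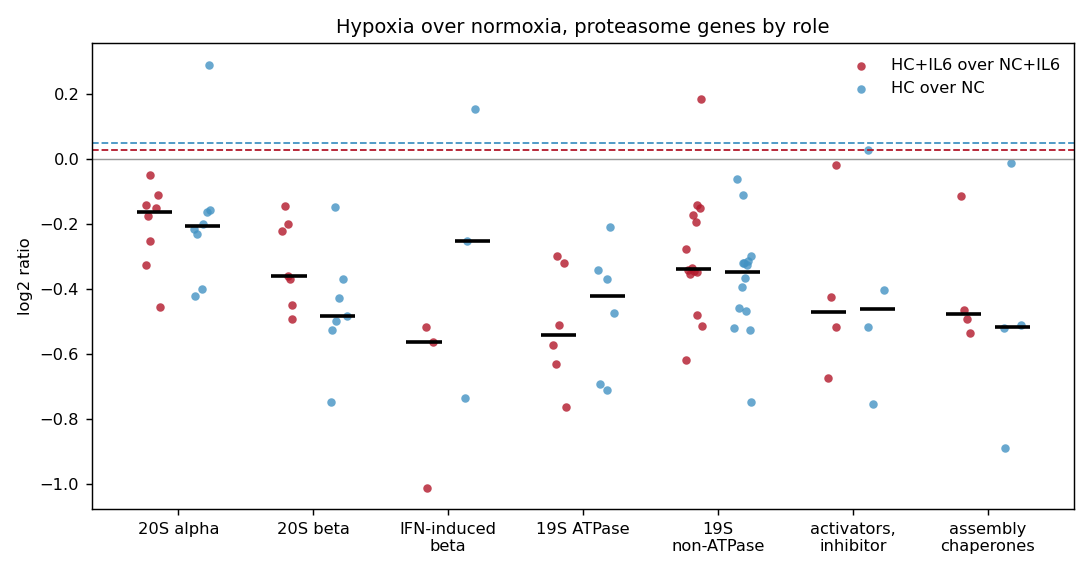
Log2 ratio of hypoxia over normoxia (y axis) for the 46 proteasome genes above the floor, grouped by role (x axis), HC+IL6 over NC+IL6 in red and HC over NC in blue, with black bars at group medians and dashed lines at the medians of all genes tested (0.03 and 0.05). Every group median lies below 0, the nearest to it being those of the 20S alpha genes (-0.16 and -0.21).

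Pairs of hypoxia log2 ratios given for a gene below are those for HC over NC and for HC+IL6 over NC+IL6. The alpha subunits, which form the outer rings and the gate of the barrel, had the hypoxia medians nearest to 0, at -0.21 for HC over NC and -0.16 for HC+IL6 over NC+IL6 over 8 genes. Psma3 was the lowest of them in both, with 13.58 in HC+IL6, 13.58 in HC, 14.03 in NC+IL6 and 14.01 in NC. Its log2 ratios were -0.42 and -0.46. Psma2 had -0.23 and -0.05, and Psma1, Psma4, Psma5, Psma6 and Psma7 lay between -0.40 and -0.11 in both. Psma8, a paralog of Psma7 known from testis, differed from the others. It had 9.71 in HC+IL6, 10.35 in HC, 10.03 in NC+IL6 and 10.06 in NC, so that its log2 ratio was 0.29 without IL6 and -0.32 with it. It was also the only gene called lower at 1.5-fold in HC+IL6 over HC, at 1.56-fold. It has 1 probe set, and signal from its paralog cannot be told apart in these values.

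The constitutive beta subunits, which form the inner rings, had medians of -0.48 and -0.36 over 7 genes, and all 7 were below 0 in both comparisons. Psmb7 had the largest change without IL6, a log2 ratio of -0.75, but -0.20 with IL6. Psmb5 had -0.50 and -0.36, and Psmb6 had -0.53 and -0.45. The structural subunits Psmb1, Psmb2, Psmb3 and Psmb4 lay between -0.48 and -0.15 in HC over NC and between -0.49 and -0.15 in HC+IL6 over NC+IL6. The interferon-induced subunits did not move as a block with hypoxia. Psmb10 was lower in both, by log2 ratios of -0.74 and -1.01. Psmb8 had -0.25 and -0.52, and Psmb9 had 0.15 and -0.56.

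The ATPases of the cap, which unfold the substrate, had medians of -0.42 and -0.54, and all 6 were below 0 in both comparisons. Psmc5 had 11.42 in HC+IL6, 11.36 in HC, 12.18 in NC+IL6 and 12.07 in NC, the largest change of the 6, at 1.64-fold lower in HC and 1.70-fold lower in HC+IL6. Psmc3 had 12.45 in HC+IL6, 12.42 in HC, 13.08 in NC+IL6 and 13.12 in NC, and was 1.61-fold and 1.55-fold lower. In Psmc5 the IL6 arrays differed from the others by 0.06 in hypoxia and 0.11 in normoxia, so its arrays divide by oxygen. Psmc6 had the smallest change without IL6, at -0.21, and Psmc1 with it, at -0.30.

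The 14 Psmd genes had medians of -0.35 and -0.34. Psmd2, the largest scaffold of the base together with Psmd1, had 12.01 in HC+IL6, 11.73 in HC, 12.52 in NC+IL6 and 12.48 in NC, at 1.68-fold lower in HC and 1.43-fold lower in HC+IL6. Psmd1 had log2 ratios of -0.39 and -0.35. Psmd14, the enzyme that cuts the ubiquitin chain off, had -0.31 and -0.19, and the ubiquitin receptor Psmd4 had -0.32 and -0.35. Psmd5, Psmd9 and Psmd10 are chaperones for building the base and not parts of the finished cap. They had -0.36, -0.47 and -0.11 in HC over NC and -0.62, -0.48 and -0.15 in HC+IL6 over NC+IL6. Psmd8, a lid subunit, was the only gene of the 46 that was brighter in HC+IL6 than in NC+IL6. It had 13.30 in HC+IL6, 12.74 in HC, 13.11 in NC+IL6 and 12.80 in NC, a pattern with both IL6 arrays above both others.

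Among the activators, Psme1, an interferon-induced part of the ring that opens the barrel in antigen processing, had 12.29 in HC+IL6, 11.98 in HC, 12.81 in NC+IL6 and 12.49 in NC. Its log2 ratio was -0.52 for hypoxia both with and without IL6, and 0.31 for IL6 in both oxygen conditions. Psme3, a nuclear activator, had 10.77 in HC+IL6, 10.59 in HC, 11.44 in NC+IL6 and 11.34 in NC, at 1.69-fold lower in HC and 1.59-fold lower in HC+IL6. Its further probe set above the floor, which is dimmer, had log2 ratios of -0.74 and -0.78. Psme4, another activator of the nucleus, hardly differed with oxygen, with 11.81 in HC+IL6, 11.65 in HC, 11.83 in NC+IL6 and 11.62 in NC. The inhibitor Psmf1 had -0.40 and -0.42, but 2 dimmer probe sets above the floor had 0.72 and 0.19 in HC over NC.

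Of the chaperones that assemble the barrel, Psmg1, which pairs with Psmg2 to build the alpha ring, had the lowest log2 ratio of all members in HC over NC. It had 11.48 in HC+IL6, 11.29 in HC, 12.02 in NC+IL6 and 12.18 in NC, at 1.85-fold lower in HC and 1.45-fold lower in HC+IL6. Psmg2 had log2 ratios of -0.52 and -0.46 and Psmg3 had -0.51 and -0.49. Psmg4 had 10.42 in HC+IL6, 10.82 in HC, 10.53 in NC+IL6 and 10.83 in NC, so that it was dimmer on both IL6 arrays and hardly differed with oxygen. Pomp, the maturation factor of the barrel and not a member by its name, had -0.14 for HC over NC and 0.03 for HC+IL6 over NC+IL6.

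**Figure D3:**
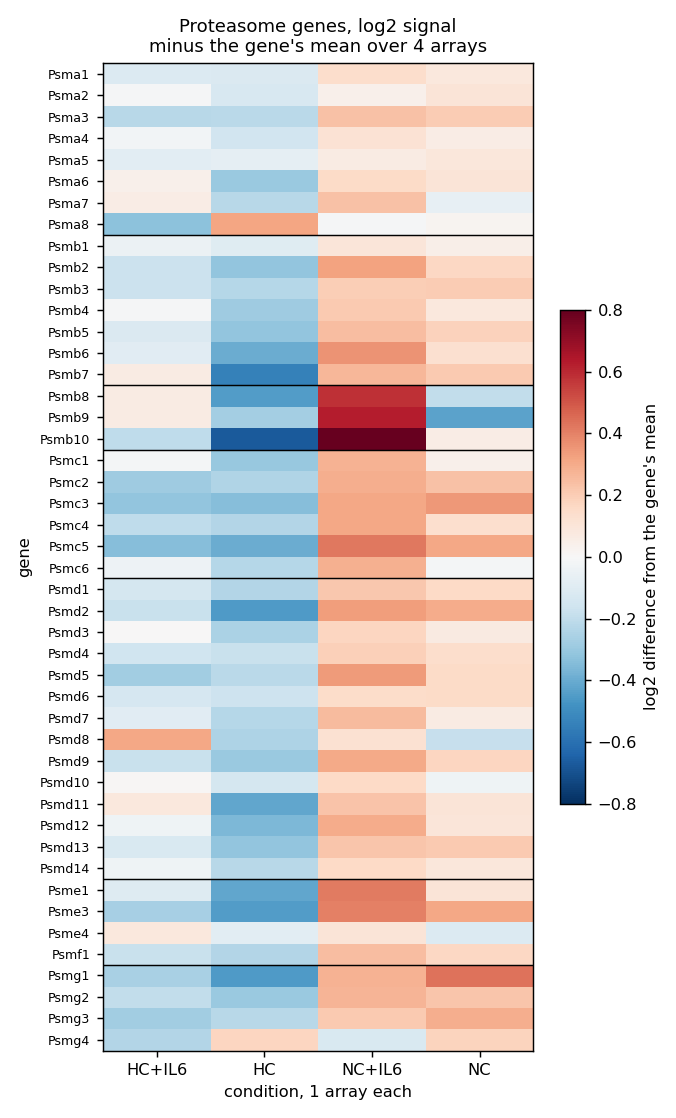
Log2 signal of the 46 proteasome genes (rows, by role) minus each gene's mean over the 4 arrays (columns), from blue (lower) to red (higher). NC+IL6 is the brightest array for 36 of the 46 genes and HC the dimmest for 37. The same shares over all genes were not counted.

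With IL6 the shift was smaller than with hypoxia and went the other way. In NC+IL6 over NC the 46 genes had a median log2 ratio of 0.07, against -0.03 over all genes tested, and 37 were above 0, against 46.2% of 9214. In HC+IL6 over HC the median was 0.15, against -0.03, and 39 were above 0, against 47% of 9203. Among the 2439 genes with a mean log2 signal above 11 the medians were -0.04 in normoxia and 0.004 in hypoxia. Of these, 1068 and 1239 were above 0. At 2-fold, Psmb9 alone was called in NC+IL6 over NC, where 3.51% were called higher and 1.04% lower, and none of the 46 in HC+IL6 over HC, where 2.35% were called higher and 1.74% lower. At 1.5-fold, 3 of 46 were higher in NC+IL6 than in NC, which were Psmb8, Psmb9 and Psmb10, against 8.39% of genes tested, and none was lower, against 6.35%. In hypoxia, Psmb7 was higher with IL6, against 7.7% of genes tested, and Psma8 lower, against 8.11%. Each IL6 comparison shares an array with each hypoxia comparison, so a high or low array enters both.

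Without the 3 interferon-induced subunits the median was 0.06 in NC+IL6 over NC and 0.14 in HC+IL6 over HC over 43 genes. In NC+IL6 over NC the other 43 lay between -0.30 (Psmg4) and 0.31 (Psme1), and the 3 interferon-induced subunits between 0.75 and 1.06, with no overlap. The HC+IL6 over HC ratios overlapped, as Psmb7 (0.60) and Psmd8 (0.56) lay above Psmb8 (0.51), and Psmd11 (0.50) above Psmb10 (0.47) and Psmb9 (0.34). Psmg4, Psmg1 and Psmg3 were the lowest in NC+IL6 over NC, at -0.30, -0.16 and -0.08. Psma8, Psmg4 and Psmd5 were the lowest in HC+IL6 over HC, at -0.65, -0.40 and -0.07.

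**Figure D4:**
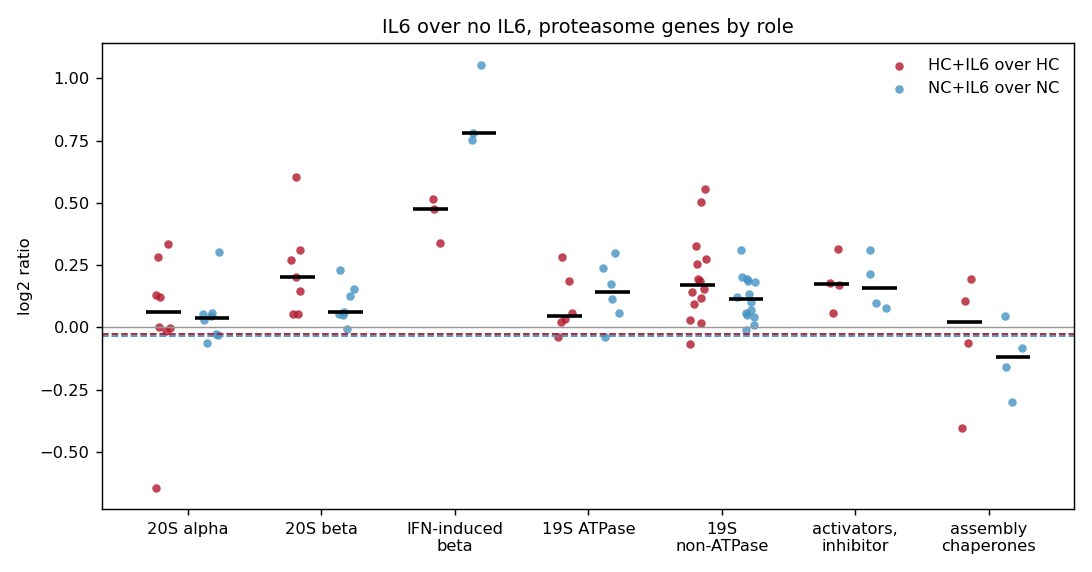
Log2 ratio with over without IL6 (y axis) for the 46 proteasome genes, grouped by role (x axis), HC+IL6 over HC in red and NC+IL6 over NC in blue, with black bars at group medians and dashed lines at the medians of all genes tested (-0.03 and -0.03). The interferon-induced beta subunits lie at a median of 0.47 in hypoxia and 0.78 in normoxia.

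When the hypoxia log2 ratio without IL6 was subtracted from the one with IL6, the result had a median of 0.02 over the 46 genes, against 0.01 over the 9474 genes. It was negative for all 3 interferon-induced subunits, at -0.27 for Psmb8, -0.72 for Psmb9 and -0.28 for Psmb10. Among the other 43 it was negative for 17, and among the 9474 genes for 4670. The largest positive differences were 0.55 for Psmb7, 0.38 for Psmd11 and 0.35 for Psmg1, and the largest negative one beside Psmb9 was -0.62 for Psma8. If the 2 hypoxia ratios varied independently between probe sets, the pooled spread would give such a difference an SD of 0.47. Psmb7, Psma8 and Psmb9 passed it, each with 1 probe set, and the share of all genes past it was not counted. That independence was not tested. No array enters both hypoxia comparisons. Pearson's r between them was 0.56 across the 46 genes, which share libraries and are not independent replicates, and 0.64 across the 9474 genes.

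**Figure D5:**
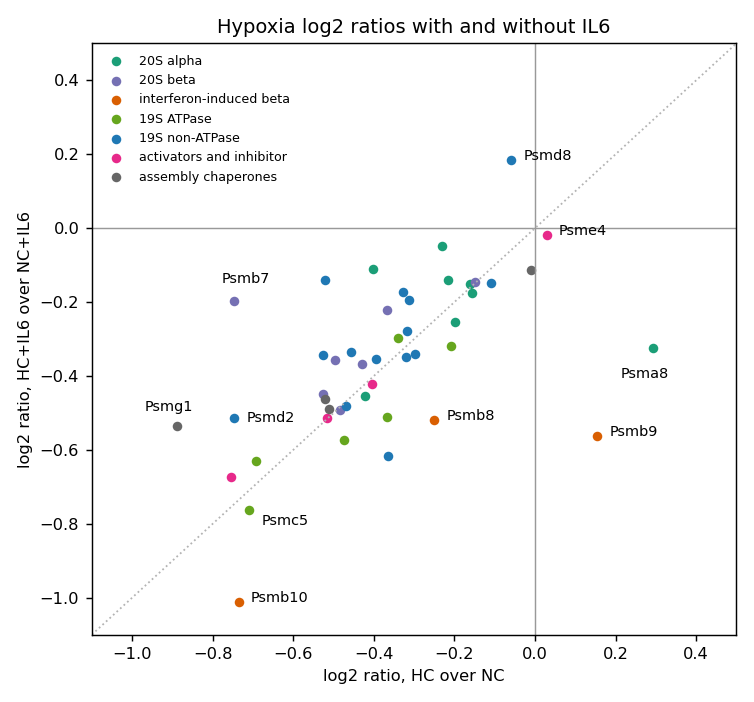
Log2 ratio of HC+IL6 over NC+IL6 (y axis) against that of HC over NC (x axis), 1 point per proteasome gene above the floor, coloured by role, with a dotted line where both are equal. Of the 46 points 42 lie below 0 on both axes, Psmb9, Psma8 and, near the origin, Psme4 lie right of 0 and below it, and Psmd8 lies above 0 on the y axis.

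Further probe sets of the members varied. Beside the brightest ones, 27 probe sets of 20 genes were above the floor in HC over NC, and 20 of them were below 0, with a median of -0.17. For HC+IL6 over NC+IL6, 18 of 25 were below 0, with a median of -0.29. Some disagreed in sign with the brightest one by more than the spread between probe sets. A further probe set of Psma6 had log2 signals of 8.73 in HC+IL6, 8.58 in HC, 7.37 in NC+IL6 and 7.74 in NC, with ratios of 0.84 and 1.36 where the brightest had -0.40 and -0.11. One of Psma1 had 0.90 in HC+IL6 over NC+IL6, against -0.25 for the brightest, and 2 of Psmb1 had 0.22 and 0.31 in HC over NC, against -0.15. In the IL6 comparisons probe sets of Psma1, Psma6, Psmb1, Psmd11, Psmc6, Psmd13 and Psmf1 disagreed in this way. The pooled SD among probe sets of proteasome genes was 0.28 for HC over NC and 0.33 for HC+IL6 over NC+IL6.

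Further genes that act with the proteasome, from lists of named pathways, were examined as well. Of 16 regulators of interferon signalling, 14 were above the floor, and their median log2 ratio was 0.42 in NC+IL6 over NC and 0.15 in HC+IL6 over HC. Irf7, a transcription factor of the interferon response, was higher with IL6 by log2 ratios of 2.03 in normoxia and 2.58 in hypoxia, and lower in hypoxia, with log2 ratios of -1.70 without IL6 and -1.14 with it. The hypoxia medians of its list were 0.25 and 0.12. In HC over NC 12 of the 14 were above 0, against 4997 of 9200 genes tested. The 12 include Stat2, which was under the floor on both of these arrays, so its 0.21 is only the difference between the floors. Nlrc5, which activates MHC class I genes together with Psmb9, was higher with IL6, by 1.44 in normoxia and 1.47 in hypoxia, and had hypoxia log2 ratios of 0.14 and 0.17. Irf1, a factor known to drive Psmb9 and its neighbour Tap1, had 9.84 in HC+IL6, 9.58 in HC, 9.90 in NC+IL6 and 9.41 in NC. Of 17 genes of peptide trimming and loading, Tap1, which encodes a chain of the peptide transporter, was called higher with IL6, by 1.60 in normoxia and 1.99 in hypoxia. The medians of these 17 were 0.04 for IL6 in normoxia and 0.30 for IL6 in hypoxia, and -0.20 and -0.15 for hypoxia. Of 21 assembly factors, cofactors and regulators of the proteasome on the array, none was called in any of the 4 comparisons. In each comparison and direction 1.04% to 3.76% of all genes were called. A count of 0 in a single comparison is therefore near the background, and the 4 together were not compared with one. Their hypoxia medians were -0.16 and -0.10. The segregase Vcp, which hands substrates to the proteasome, had the lowest values of these, at -0.78 and -0.69. Nfe2l1, the factor that induces proteasome genes when the protease is inhibited, had 10.50 in HC+IL6, 9.76 in HC, 10.58 in NC+IL6 and 9.85 in NC, above the others on both IL6 arrays. Of 12 genes for ubiquitin and its relatives and their activating enzymes 4 were on the array under 1 symbol and above the floor, and Uba7, the activating enzyme of the ubiquitin-like Isg15, was called higher in NC+IL6 over NC, by 1.16.

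Other large complexes differed among themselves in hypoxia. The 73 mitochondrial ribosomal proteins had medians of -0.37 for HC over NC and -0.36 for HC+IL6 over NC+IL6, and the 8 subunits of the chaperonin CCT had -0.36 and -0.23. These lay close to those of the proteasome. The 42 cytosolic ribosomal proteins above the floor had medians of 0.00 and 0.14. None of these differences was tested, and the hypoxia shift is not shown to be particular to the proteasome. In NC+IL6 over NC the medians of the 3 complexes were -0.02, -0.04 and -0.17.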

How the data were processed

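RNA of 4 cultures of RAW264.7 cells was hybridized to 1 array each. The authors deposited log2 signals of 45101 probe sets, made with MAS5 per the submitters' processing notes (version not given in the sources used here). Every array has a mean signal of 500.0 after trimming 2% at each end. Sources do not state how much oxygen normoxia had. Symbols came from an annotation table in which 34958 probe sets carry 1 symbol, 932 several (not used) and 9211 are not listed; matching gene numbers to RefSeq (GRCm38.p6) changed 0 symbols. The floor rests on 57 genes on the array of a list of 67. Ratios, medians and counts were computed with Python 3.11.15, numpy 2.4.6 and pandas 2.3.3, with no test, and the calculation was tested on simulated data. There, log2 shifts of 1.5 and -1.5 were called at 2-fold in 50 of 50 genes each, but shifts of 0.4 and -0.4 in 1 and 0 of 50. The simulated noise was smaller than the spread between probe sets and held no differences between cultures. It checks the calculation only and not how reliable the calls are here. Named by rule are Psmb5 to Psmb10, the Psme, Psmf and Psmg genes, members past 1.5-fold, the 3 highest and 3 lowest of each comparison, those under the floor or with discordant probe sets, and up to 4 genes past 2-fold per further list. Cell type markers and the hypoxia-inducible genes were only counted and are not named. Psma3 to Psma5, Psma7, Psmb2 to Psmb4, Psmc1, Psmd1, Psmd4, Psmd9, Psmd10, Psmd14, Pomp, Irf1, Stat2, Nfe2l1 and Vcp were named after their values were seen. Members and lists were chosen with earlier results of these data known. Alternatives were quantile normalization and cyclic loess (limma 3.58.1, R 4.3.3), the mean over probe sets, no floor, a floor at the median of the background probe sets, that median added to every signal, and the 1.5-fold threshold.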

Additional observations from a re-analysis of the deposited data

Results flagged for a closer look

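Psmb9 and Psma8 had hypoxia log2 ratios on opposite sides of 0 with and without IL6, and the 2 ratios differed by more than 0.47. That is the SD that the spread between probe sets would give such a difference if the 2 ratios varied independently. For Psmb9 the ratio was -0.56 with IL6 and 0.15 without, a difference of -0.72. For Psma8 it was -0.32 with IL6 and 0.29 without, a difference of -0.62. Each rests on 1 probe set on 4 single arrays, and the difference was not tested. How many of all genes meet the same rule was not counted, so the 2 are not shown to be unusual.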

How the results depend on the processing

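No paired analysis was possible because each condition has 1 array and the labels give no replicate numbers. In the 6 alternatives that apply to medians and ratios, each median of the proteasome genes, each median of the interferon-induced subunits and each log2 ratio of Psmb5 to Psmb10 kept its sign. The median for HC over NC was -0.31 after quantile normalization, -0.29 after cyclic loess and -0.32 as a mean over probe sets, and that for HC+IL6 over NC+IL6 was -0.29 after quantile normalization. The largest shift of the median of all genes by a normalization was -0.08. The call of Psmb10 as lower in HC+IL6 over NC+IL6 stood at the threshold and was lost after quantile normalization and cyclic loess, which left 0 calls. Without a floor there were 2 calls in that comparison and 2 in NC+IL6 over NC, where the median floor also gave 2, since Psmb11 was then included. At 1.5-fold the calls were 7 in HC over NC, 5 in HC+IL6 over NC+IL6, 3 in NC+IL6 over NC and 2 in HC+IL6 over HC. The call of Psmb9 in NC+IL6 over NC held in each of the 6, with log2 ratios of 1.01 to 1.07. Signals near the floor, as of Psmb11 and most further probe sets, limit what can be said of them, and no alternative stands in for replicate arrays.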
